A study of Drosophila melanogaster with 6 samples.

Results

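Cuticle proteins of the Cpr group, Tweedle proteins and Osiris proteins are 3 insect gene families of cuticle-forming tissue, and their RNA was followed in Drosophila melanogaster. Members were all rows of the authors' deposited gene table whose name begins with Cpr and a digit, with Twdl, or with Osi and a digit. They numbered 89 of 14862 genes, of which 56 were Cpr genes, 15 were Tweedle genes and 18 were Osiris genes. Cuticle genes with other names, such as the Lcp and Edg genes, were counted separately.

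The insect cuticle is an extracellular sheet that epidermal and tracheal cells lay down on their apical side. Cpr proteins carry the Rebers-Riddiford sequence, which binds chitin, and are laid into the chitin layers. Tweedle proteins are a smaller group of secreted cuticle proteins, and dominant mutations in Drosophila Tweedle genes make larvae and pupae short and thick. Osiris proteins are insect-specific proteins of membranes and the secretory route, and many of their genes are neighbours in a dosage-sensitive stretch of the genome. In the Drosophila embryo all 3 families are best known from late stages, when the epidermis and trachea secrete the first larval cuticle.

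The 6 samples were RNA of 200 embryos each, labelled as 16 to 20 h old, from flies kept on bottle food with yeast paste. In 3 of them, the GFP control, the embryos came from oocytes that expressed green fluorescent protein. In the other 3, labelled InR-DN, they came from oocytes that expressed a dominant-negative insulin receptor, which blocks signalling by the normal receptor. The promoter that drove either transgene, the parents' genotype beyond it, and whether replicate samples stem from independent crosses do not appear in the labels, so the p-values measure a spread between samples that may be technical. The question asked by the series was which embryonic genes differ after insulin signalling is lowered in the mother's germ line.

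For each gene the authors' deposited table holds edgeR's likelihood ratio test, its log2 fold change and one average level, with no value per sample. Levels are in CPM, reads per 1000000 reads of a library. The numerator of the fold change is not stated, so a gene is described here by the positive or the negative side of that fold change and never as higher in one genotype. The levels of scarce genes take discrete steps, from which the effective sizes of 12 libraries and the whole reads per library of scarce genes were computed. In units of 1000000 reads, the libraries P1, P2 and P3 of the positive side held 40.5, 37.3 and 25.7, and the libraries N1, N2 and N3 of the negative side held 31.1, 29.6 and 23.4. The other 6, of 15.8 to 33.0 in the same unit, took part in the average but not in the fold change, and what they were is not stated. Reads per library are given below in the order P1, P2, P3, N1, N2, N3. The order is by size alone, and no library was matched to a sample. A single matching set of reads, within the totals searched, was found for 80 of the 89 members. For the other 9 only an approximate range is given.

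Marker lists for late embryonic tissue were mixed in the compared libraries. In the list of 4 epidermis markers, the transcription factor grh, which drives epidermal cuticle genes, had 2, 0 and 0 positive-side reads and 1, 4 and 3 negative-side reads. The other 6 libraries held at least 17493 reads of it. The other 3 epidermis markers ovo, knk and kkv had more in the compared libraries, at least about 205, 63 and 42 reads. The data do not say from which tissue these reads came. At 288 CPM, ovo averaged within the range of the maternal germ line markers given below. Of 14 epidermal transcription factors, 7 had known reads, between 1 and 16 in the compared libraries. D, SoxN and vvl had 1, 6 and 16 there, against at least 21495, 25279 and 10539 in the others. The lower limits of the remaining 7 lay between about 103 and 205 reads. Among 5 tracheal markers verm, a chitin deacetylase of the tracheal lumen, had 7 reads in the compared libraries, while trh, btl, Gasp and serp had at least about 177, 142, 49 and 44. All 8 eggshell markers averaged between 516 and 4643 CPM over the 12 libraries, and all 6 maternal germ line markers between 73.0 and 865 CPM. Such an average does not say which libraries held the reads. In the compared libraries the lower limits lay between about 18 and 120 reads for the eggshell markers. For the maternal germ line markers they lay between about 89 and 246, and for the muscle markers below between about 92 and 147. All 6 muscle markers averaged between 1.03 and 27.2 CPM, and among 6 neuron markers the synaptic genes nSyb, Syt1 and para had 13, 7 and 11 reads in the compared libraries, while Syx1A, elav and brp had at least about 166, 77 and 48. Both midgut proteases in the table, Jon25Bi and betaTry, were far on the positive side, with log2 fold changes of 8.43 and 6.49. Among 3 fat body markers Lsp2 was called, also on the positive side, with a log2 fold change of 3.73. In whole embryos fewer cells of a type and less RNA per cell cannot be told apart, and the part of these markers in the results below was not tested.

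All 3 families lay near the floor of the table. A gene with almost no read averages about 0.0719 CPM, because a prior count is added, and the median gene of the table averaged 5.22 CPM. The median average level was 0.104 CPM for the Cpr genes, 0.0812 CPM for the Tweedle genes and 0.103 CPM for the Osiris genes. Per kilobase of annotated exon, these medians were 0.128, 0.0700 and 0.0815 CPM, with lengths found for 56, 14 and 18 members. The prior count raises short genes most on that scale. Only 4 members averaged 1 CPM or more, 3 Cpr genes and 1 Osiris gene. Of the epidermal transcription factors described above, grh, D, SoxN and vvl had few reads in the compared libraries. Those of the list without known reads had lower limits there between about 103 and 205 reads. Over the 12 libraries grh, D, SoxN and vvl averaged 92.1, 113, 133 and 55.4 CPM, well above the families. Whether the compared libraries hold embryos of the labelled age was not tested. The low levels of the families should therefore not be taken as typical of that age.

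**Figure D1:**
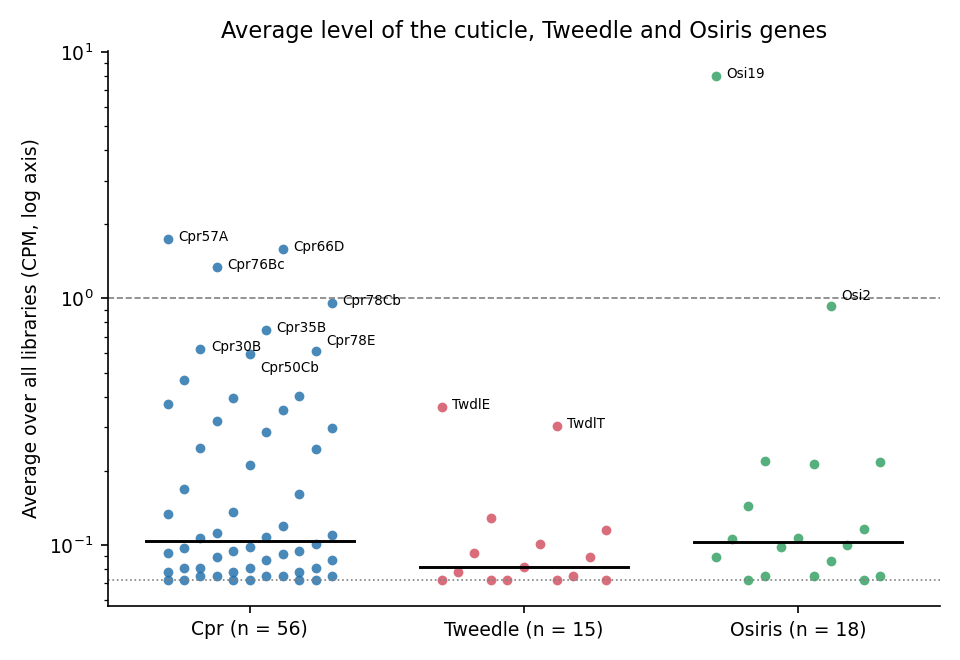
Average level of each member over the 12 libraries, in CPM on a log axis, by family; the solid bar is the family median, the dashed line 1 CPM and the dotted line the lowest average of the table, 0.0719 CPM. Osi19 stands alone at 7.98 CPM, 3 Cpr genes lie between 1.34 and 1.74 CPM, and no Tweedle gene reaches 0.37 CPM.

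Osi19 was the most abundant member, with an average of 7.98 CPM and 7.01 CPM per kilobase. No other annotated gene shares its exons. Its neighbours on both sides are Osiris genes too, and both were near the floor. Osi18 had no read in the compared libraries, and Osi20 had 1, 7 and 0 positive-side reads and 2, 0 and 1 negative-side reads. The fold change of Osi19 was -0.23 on the log2 scale, with an SE of 0.23 implied by the test and an adjusted p of 1 by edgeR's likelihood ratio test. Its reads in the compared libraries lay between about 156 and 3743.

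The 3 Cpr genes above 1 CPM were Cpr57A, Cpr66D and Cpr76Bc, at 1.74, 1.59 and 1.34 CPM. Per kilobase, Cpr66D was at 1.44 CPM, Cpr57A at 1.17 CPM and Cpr76Bc at 0.729 CPM. The value of Cpr57A cannot be credited to a cuticle gene, because the odorant-binding gene Obp57d shares its exons and has the same average, 1.74 CPM, and the same log2 fold change, 0.27. Cpr66D had a log2 fold change of 0.18 with an implied SE of 0.28. Cpr76Bc had -0.74 with an implied SE of 0.27 and an adjusted p of 0.126 by edgeR's test, so that it did not pass. Just under 1 CPM lay Cpr78Cb at 0.962 CPM and Osi2 at 0.930 CPM, and the nearest Tweedle gene was TwdlE at 0.362 CPM.

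By the authors' test at an adjusted p under 0.05, 4 of the 89 members were called, Osi2 on the positive side, and Cpr49Ae, Cpr49Ab and Cpr47Ef opposite to it. That is 4.49% of members, and 667 of all 14862 genes were called, which is also 4.49%, with 2.3% of genes called as positive and 2.19% as negative. Among the 6130 genes that averaged under 1 CPM, 5.04% were called. The members' share is therefore at the background, and no excess of calls was seen in the families as a whole. An unadjusted p under 0.05 was reached by 8 members, 8.99%, against 10% of all genes.

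The sides of the calls and folds were counted by family. All 3 called Cpr genes, Cpr49Ae, Cpr49Ab and Cpr47Ef, were on the negative side. Over the family 28 Cpr genes had a negative and 14 a positive log2 fold change, and 14 were at 0 for want of any read. The median log2 fold change of the Cpr genes was -0.07, against 0 for all genes of the table. No Tweedle gene was called by edgeR's test, and TwdlG alone had an unadjusted p under 0.05. Of the Tweedle genes 7 had a positive and 3 a negative fold change, with 5 at 0 and a median of 0. Among the Osiris genes Osi2 was called, on the positive side, while 4 folds were positive, 5 negative and 9 at 0, with a median of 0. Many of these folds rest on few reads. In the compared libraries 20 Cpr, 8 Tweedle and 3 Osiris genes had only 1 to 3 reads. Reads on 1 side alone were found in 18, 8 and 3 genes of these families. Even 1 read on each side, as in Cpr47Eg, gave a negative log2 fold change of -0.18, because the positive-side libraries are larger. The shares of positive and negative folds over all genes were not counted, and the difference between families was not tested.

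**Figure D2:**
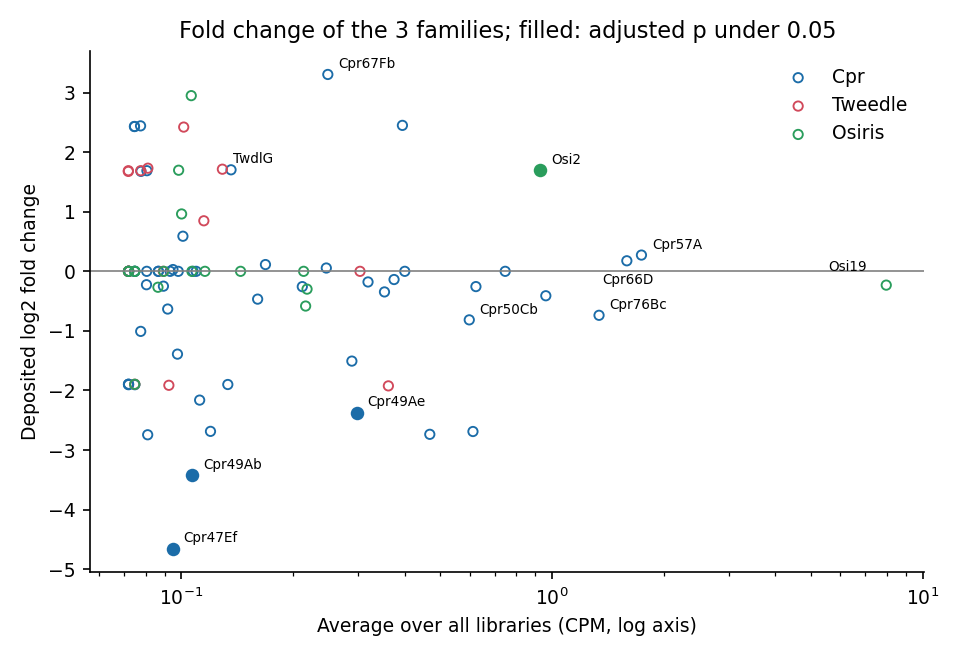
Deposited log2 fold change of each member against its average level over the 12 libraries, in CPM on a log axis; filled points have an adjusted p under 0.05. The 3 called Cpr genes lie between -2.37 and -4.66, Osi2 lies at 1.70, and Osi19, the most abundant member, lies at -0.23.

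Cpr49Ae was the best supported change among the Cpr genes. It had 8, 4 and 2 positive-side reads and 20, 25 and 15 negative-side reads. In CPM this was 0.128 ± 0.0625 (SD, n = 3) and 0.709 ± 0.118 (SD, n = 3). Each negative-side library was above each positive-side library. The ratio of the higher to the lower side was 5.27, with an exact 95% counting interval from 2.91 to 10.2. In the authors' deposited table the log2 fold change was -2.37, with an implied SE of 0.46 and an adjusted p of 1.40e-05 by edgeR's likelihood ratio test. An exact two-sided permutation test over the 6 libraries gave p = 0.1, the smallest that 3 against 3 allows. With any 1 of the 6 compared libraries left out, its unadjusted p by the likelihood ratio test stayed between 6.56e-07 and 1.91e-05, under the highest p called in the table, 0.00221. The other 6 libraries held 5 reads of it, against 74 in the compared ones.

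Cpr49Ab, in the same gene cluster, had 0, 1 and 0 positive-side reads and 3, 3 and 6 negative-side reads. No positive-side library reached any negative-side library. The ratio of the sides, from 1 read against 12, was 14.8 with an exact 95% counting interval from 2.18 to 631. The deposited log2 fold change was -3.43 with an adjusted p of 0.0252 by edgeR's test. The call rests on few reads: without P1, P3 or N3 the unadjusted p by the likelihood ratio test rose to 0.0111, 0.00491 and 0.0140, above the highest p called.

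Cpr47Ef had no positive-side read and 6, 2 and 1 negative-side reads. With the positive side set at 3 reads over its libraries, its negative-side level was at least 3.69-fold higher. Its deposited adjusted p was 0.0214 by edgeR's test, and its fitted fold depends on the prior count. Leaving out any 1 positive-side library raised the unadjusted p by the likelihood ratio test to between 0.00284 and 0.00544. Leaving out N1, which held 6 of its 9 reads, raised it to 0.0163. In all 4 cases it was above the highest p called. The other 6 libraries held no read of Cpr49Ab or Cpr47Ef.

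In the Cpr49A cluster most reads were of the called genes, and in the Cpr47E cluster they were not. The Cpr49A cluster has 8 members in the table, with 21 positive-side reads and 78 negative-side reads. The 6 members of it that were not called held 12 reads in all over the compared libraries, at most 7 each. Cpr49Af, the annotated neighbour of Cpr49Ae, and Cpr49Aa, the neighbour of Cpr49Ab, had no read in them. In the Cpr47E cluster of 6 members, the 5 that were not called held 13 reads, and 9 of those were of Cpr47Eb. Cpr47Ee, next to Cpr47Ef, had 0, 2 and 0 positive-side reads and no negative-side read. In the Cpr76B cluster, Cpr76Bc had the negative fold change given above, with an unadjusted p of 0.00715 by edgeR's test. Cpr76Bb had 6, 4 and 5 reads against 7, 6 and 4, and Cpr76Bd had 8, 12 and 5 against 7, 7 and 10, and in both genes the sides overlapped.

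Other Cpr genes were not called. In Cpr51A, Cpr97Eb and Cpr72Ec the sides overlapped. Cpr51A had 11, 14 and 6 positive-side reads and 11, 5 and 8 negative-side reads. Its ratio was 1.05 with an exact 95% counting interval from 0.597 to 1.87, so that a change as large as that of Cpr49Ae lay outside it. Cpr97Eb had 8, 7 and 5 reads against 5, 5 and 5. Cpr72Ec had 13, 6 and 3 reads against 7, 7 and 5. Cpr50Cb, whose reads numbered between about 82 and 215, had a log2 fold change of -0.81 with an implied SE of 0.32 and an adjusted p of 0.174 by edgeR's test. Cpr67Fb had 3, 1 and 0 positive-side reads and no negative-side read, with an adjusted p of 0.367. An antisense RNA gene shares its exons, and the sources used here do not say if reads were counted by strand.

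**Figure D3:**
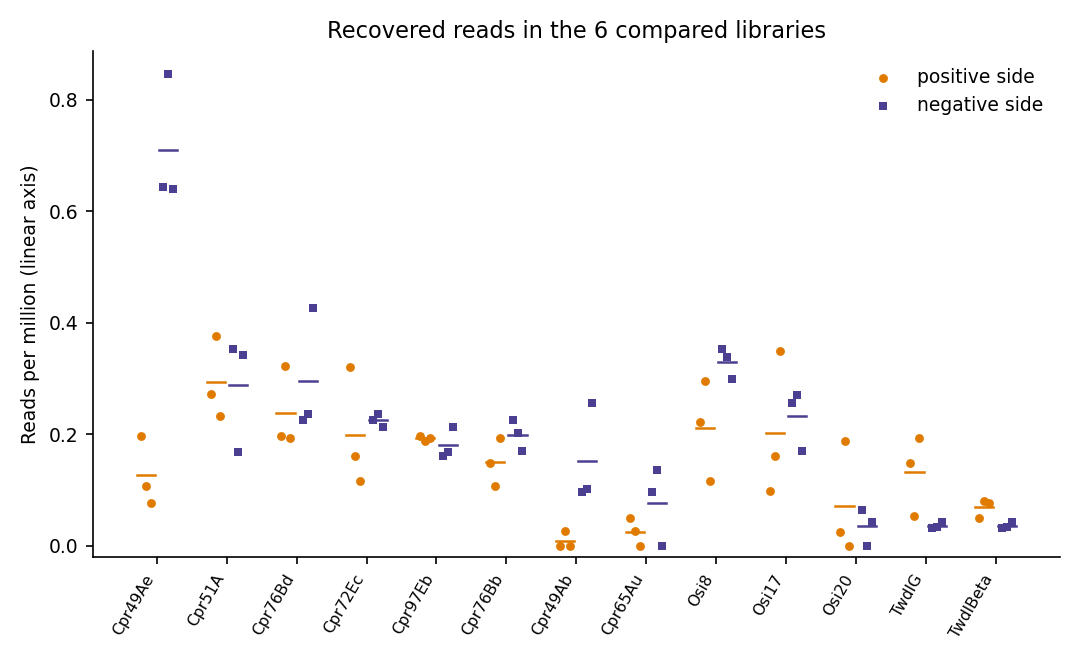
CPM in each of the 6 compared libraries for the 13 members with 10 or more known reads, on a linear axis from 0; points are libraries, circles the positive and squares the negative side, and bars the mean of 3. In Cpr49Ae the negative side lies between 0.641 and 0.845 and the positive side between 0.0777 and 0.198, while in Cpr51A, Cpr76Bd and Cpr97Eb the sides overlap.

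Summed over the 49 Cpr genes with known reads, the positive-side libraries held 1.75, 1.69 and 1.17 CPM and the negative-side libraries 2.70, 2.67 and 2.56. The sides did not overlap, and the called genes made up most of the gap. Without the 3 called genes the sums were 1.56, 1.56 and 1.09 against 1.77, 1.66 and 1.62 CPM, still without overlap. The called genes were picked for their difference between these same libraries, so leaving them out had to narrow the gap. The 7 Cpr genes without known reads, among them the 3 above 1 CPM, are not in these sums. Their lower limits lay between about 28 and 112 reads each in the compared libraries, against 387 reads for the 49 genes together. A large part of the family's reads is therefore missing from the sums. These sums are descriptions of the members with known reads, and no test was made on them.

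Osi2 was the only called Osiris gene and had the smallest p of all members. In the authors' deposited table its log2 fold change was 1.70, with an implied SE of 0.32 and an adjusted p of 5.46e-06 by edgeR's likelihood ratio test. Its average was 0.930 CPM, or 0.535 CPM per kilobase, and its reads in the compared libraries lay between about 105 and 363. Reads per library could not be computed for it, so whether the libraries of the sides overlapped is not known. Osi3, its annotated neighbour, had no read in the compared libraries.

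Apart from Osi2 and Osi19 the Osiris genes were scarce. Osi8 had 9, 11 and 3 positive-side reads and 11, 10 and 7 negative-side reads. In CPM this was 0.211 ± 0.0898 (SD, n = 3) and 0.330 ± 0.0281 (SD, n = 3), without overlap, but the ratio had an exact 95% counting interval from 0.832 to 2.72 and the adjusted p was 0.931 by edgeR's test. Osi17 had 4, 6 and 9 reads against 8, 8 and 4, with sides that overlapped. Osi24 had 2, 0 and 1 reads against none, with an adjusted p of 0.581. In Osi20 P2 held 7 of the 11 reads. Osi9 had 1, 1 and 1 reads against 0, 1 and 2, and its sides overlapped. Summed over 16 Osiris genes, without Osi2 and Osi19, the positive side held 0.420, 0.671 and 0.583 CPM and the negative side 0.707, 0.642 and 0.598, which overlapped.

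Tweedle genes were the scarcest family in the compared libraries, with 35 reads over all 15 genes among 187.61 units of 1000000 reads. TwdlG held 16 of them, 6, 2 and 5 in P1 to P3 and 1, 1 and 1 in N1 to N3. In CPM this was 0.132 ± 0.0717 (SD, n = 3) and 0.0362 ± 0.00569 (SD, n = 3). The sides did not overlap. The ratio was 3.52 with an exact 95% counting interval from 0.968 to 19.3, and the adjusted p was 0.438 by edgeR's test, so that TwdlG did not pass. TwdlBeta had 2, 3 and 2 reads against 1, 1 and 1, with a ratio of 1.90 and an exact 95% counting interval from 0.433 to 11.4. The remaining 13 Tweedle genes had 3 reads or fewer each. Among them TwdlV had 2, 0 and 0 reads against none and TwdlW had 1 read, in N3. Over the family the positive side held 0.272, 0.188 and 0.311 CPM and the negative side 0.0964, 0.0676 and 0.171. Without TwdlG these became 0.124, 0.134 and 0.117 against 0.0642, 0.0338 and 0.128, which overlapped.

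Some members were read only in libraries outside the comparison. In the 6 compared libraries 28 of the 89 members, 31.5%, had no read at all. Of all genes 12% had none, and among genes that averaged under 1 CPM 27.7% had none, so the members' share is near that of scarce genes. The members without a read were 14 of 56 Cpr genes, 5 of 15 Tweedle genes and 9 of 18 Osiris genes. A count of 0 over the compared libraries allows a level of up to 0.0160 CPM by the limit of 3 reads. This limit, like the intervals, covers counting error only.

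Among members with known reads, several with many reads in the other libraries had few or none in the compared ones. Cpr35B had no read in the compared libraries and between 176 and 249 in the other 6. Cpr78E had 2 reads in the compared libraries, 1 each in N1 and N2, and between 144 and 196 in the others. Cpr60D had 2 reads, both in N3, and between 109 and 142 in the others. TwdlE had 1 read in the compared libraries and between 84 and 104 in the others, and TwdlT had none and between 69 and 83. The gene lectin-28C shares exons with TwdlE. Osi22 had no read and between 45 and 51 in the others.

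The reverse held for Cpr76Bb and Cpr97Eb, with 32 and 35 reads in the compared libraries and none in the other 6. Osi8 had 51 against 1, Cpr76Bd 49 against 1, Cpr51A 55 against 7 and Osi17 39 against 12 to 13. Cpr72Ec had reads in both, 41 against 55 to 69. The members without known reads, Osi19 and Osi2 among them, could not be placed in this way. The other 6 libraries hold 159.83 units of 1000000 reads in all and the compared ones 187.61.

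**Figure D4:**
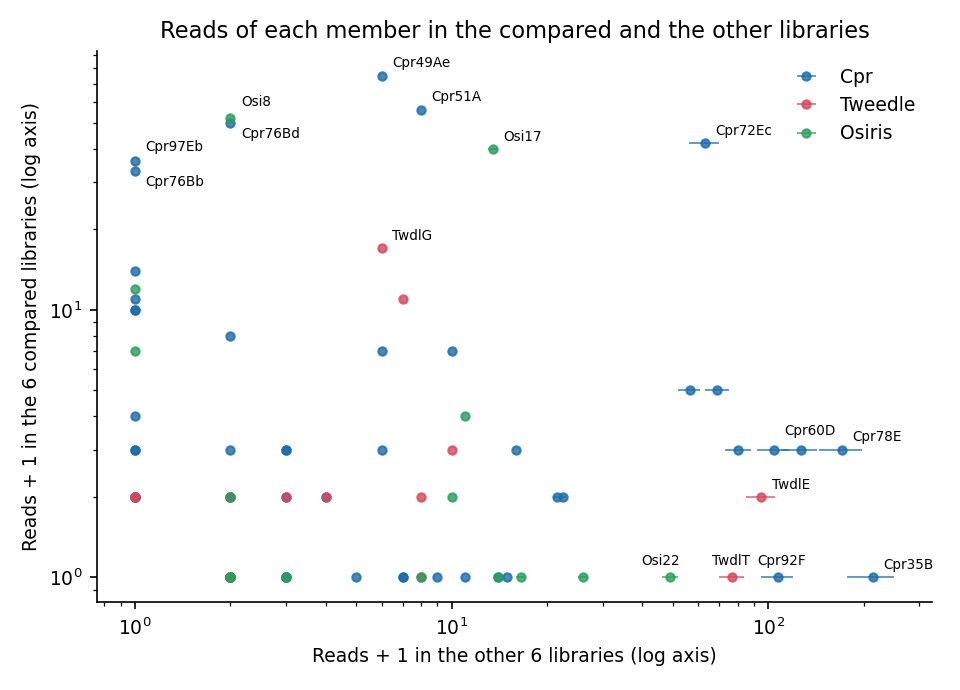
Known reads of each member, plus 1, in the 6 compared libraries against the other 6 libraries, both on log axes; horizontal bars span the range of reads that the average allows. Cpr49Ae, Cpr51A and Osi8 lie high on the left with 74, 55 and 51 reads in the compared libraries, while Cpr35B, Cpr92F and TwdlT lie at the bottom right with none. Members without known reads are not shown.

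Cuticle proteins and genes of chitin, the apical matrix, pigment and epidermal regulation were described by 5 lists. Not every listed gene acts in the cuticle alone. Over all genes 4.49% were called and 10% had an unadjusted p under 0.05 by edgeR's test. No list was tested against these shares. Of 29 other cuticle proteins in the table none was called by edgeR's test, and 1 had an unadjusted p under 0.05. That was the pupal cuticle protein gene Pcp, with 1, 0 and 1 positive-side reads and 5, 7 and 0 negative-side reads and an adjusted p of 0.391. Of these genes 14 had no read in the compared libraries, the elastic protein gene resilin among them. Obst-H, an obstructor with chitin-binding domains, had 10, 4 and 3 reads against 1, 5 and 0, and Lcp1, a larval cuticle gene, had 0, 2 and 0 against none. The median log2 fold change of the list was 0.

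Of 16 genes of chitin synthesis and cuticle assembly none was called by edgeR's test, and 1 had an unadjusted p under 0.05. Gfat1, which makes glucosamine phosphate for chitin precursors, had a log2 fold change of -0.80 and an adjusted p of 0.465. The chitin synthase gene CS-2 had 0.70 with an adjusted p of 0.613, and knk, which protects new chitin, had 0.56 with an adjusted p of 0.820. The median of the list was -0.01. The list as a whole, which is not of cuticle genes alone, was well above the families in level. Its median average was 1.81 CPM, and its genes ranged from 0.0776 to 93.3 CPM.

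Of 12 apical matrix proteins with zona pellucida domains or related roles, 1 was called on each side, and 3 had an unadjusted p under 0.05. Over all genes 4.49% were called and 10% had such a p, and the difference from these shares was not tested. The gene pio, which joins epithelial cells to the apical matrix, had a log2 fold change of -1.20 and an adjusted p of 0.0249 by edgeR's test. The gene mey had 4, 7 and 6 positive-side reads and 2, 0 and 0 negative-side reads, with an adjusted p of 0.0418. The gene dyl had 3, 1 and 0 reads against none, with an adjusted p of 0.377. The median log2 fold change of the list was 0.08.

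Of 24 tanning and pigment enzymes 1 was called on each side, and 7 had an unadjusted p under 0.05, which 10% of all genes reached. The difference from that share was not tested. Dat, which acetylates dopamine, had a log2 fold change of 1.04 and an adjusted p of 0.00295 by edgeR's test. The gene yellow-d, of the yellow family, had -2.27 and an adjusted p of 2.42e-06. PPO1, a prophenoloxidase, had no positive-side read and 2, 2 and 1 negative-side reads, with an adjusted p of 0.101. The median log2 fold change of the list was -0.48.

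Of 14 epidermal transcription factors trh, which specifies the trachea, was called on the positive side, with a log2 fold change of 2.27 and an adjusted p of 9.15e-16 by edgeR's test. The nuclear receptor gene Hr46 had 0.71 with an adjusted p of 0.0703. The reads of grh, given above, lay mostly on the negative side, with an adjusted p of 0.319. An unadjusted p under 0.05 was reached by 4 of the 14. Over all genes 4.49% were called and 10% had such a p, and the difference from these shares was not tested. The median log2 fold change of the list was 0.09.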

How the data were processed

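RNA of 3 GFP control and 3 InR-DN embryo samples was sequenced from libraries of a stranded TruSeq kit, with polyadenylated RNA selected, per the labels. The submitters' processing notes name FastQC, Bowtie and TopHat. Versions, build, read counter and filters are not given there, so no coordinates are printed. Per the file headers, the deposited table holds the authors' likelihood ratio test by edgeR. The authors' log2 fold change and average log2 CPM were shrunk by prior counts. The deposited likelihood ratio has no fixed range and was filed under the unit score, and the deposited p-value and its Benjamini-Hochberg adjustment were used as given, at a threshold of 0.05, with no refit. An implied SE is the absolute log2 change divided by that statistic's square root.

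Effective sizes of 12 libraries were solved from the average log2 levels of single-read genes with a prior count of 2 and a dispersion of 0.0533. Of 78 levels predicted for 2 reads, 74 were found within 1e-09. A member's reads are the one set of whole numbers, among those searched, that gives its fold change (prior count 0.125), test statistic and average. Every total was searched for members whose average allows up to 90 reads. For other members totals up to 45 were searched, and for list genes totals up to 40. Larger sets were not looked for there, so a small set found for such a gene is not shown to be the only one. The match on the log2 fold change had to be within 5e-06 for reads on 1 side, and otherwise within 1e-07 up to 4 reads, 1e-08 up to 12, 3e-09 up to 25 and 1e-09 above, with a dispersion of at most 1. These tolerances were set after the data were seen. Among 2482 genes of up to 12 reads, 98.67% had exactly 1 solution. The step was tested on simulated data: of 400 drawn read sets of 1 to 40 reads, 386 came back correctly, 0 wrongly and 14 not at all, and larger sets were not tried. Elsewhere the lower limit is the number of reads at which counting noise alone gives the test statistic. In 12 of 14 genes with 20 or more known reads it was not above them, and at most 1.038 times them. The upper limit gives every read of the average to the compared libraries.

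Lengths and neighbours come from the BDGP6 annotation, by symbol or synonym for 88 of 89 members. Python 3.11.15, numpy 2.4.6, pandas 2.3.3 and scipy 1.17.1 were used. The members and the 13 lists were chosen with earlier results of these data known. The rule for named genes took called members, members of 1 CPM or more, the 3 highest averages and 3 smallest p-values of each family, members just beside 1 CPM, and up to 3 genes per cuticle list by p. Other members and the markers were named after their values were seen. Alternatives were an adjusted p under 0.01, a minimum log2 change of 1, a filter at 1 CPM, Bonferroni, other summaries, levels of 4 and 0.25 CPM, and tolerances 10 times wider and narrower. Leaving out each compared library was added after the data were seen.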

Additional observations from a re-analysis of the deposited data

Results flagged for a closer look

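Members with no read in the 6 compared libraries held reads in the other 6 libraries, which take no part in the fold change. For the 14 Cpr genes of this kind the other libraries held at least 338 reads in all. For the 5 Tweedle genes it was at least 79 reads, and for the 9 Osiris genes at least 110. Cpr35B made up at least 176 of the Cpr reads, TwdlT at least 69 of the Tweedle reads and Osi22 at least 45 of the Osiris reads. The table lists no gene without a read, so a gene with none in the compared libraries must have some in the others, and only the sizes of these sums are informative. With 3 libraries a side, no library was tested as standing apart from its group.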

How the results depend on the processing

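Of 62 alternative values, 39 stayed within the limits set for them and 23 moved. All were counts, levels or sums of reads, which have no sign, so a change of direction could not be seen. The limits were wide: 2 Cpr calls against 3, and 405 or 394 reads against 534, were counted as within them. An adjusted p under 0.01 and Bonferroni each left 1 Cpr call and 2 calls over the families, and 0 and 0 calls among apical matrix proteins; Bonferroni left 1 call among tanning enzymes. Testing genes of 1 CPM or more alone left 0 Cpr, 0 Osiris and 0 calls over the families and 1 among tanning enzymes, since all 4 called members averaged under 1 CPM. With 1 compared library left out and each gene's dispersion held, between 1 and 3 Cpr genes and 0 Tweedle genes stayed under the highest p called; Osi2 could not be included, as its reads are not known. A mean of the log2 average put the family levels at 0.162, 0.101 and 0.154 CPM for Cpr, Tweedle and Osiris genes, and counting members with equal values once gave 0.107, 0.0851 and 0.106 CPM. At 0.25 CPM 16 Cpr, 2 Tweedle and 2 Osiris genes lay above the level, and at 4 CPM 0 Cpr genes. A tolerance 10 times wider gave 405 reads over 78 members, against 534 over 80, as Cpr49Ae and Cpr51A then had 2 solutions each. One 10 times narrower gave 394 reads over 67 members. The narrower search found no solution for Cpr49Ab, Cpr76Bd, Cpr72Ec, Cpr62Bc, Osi9 and TwdlG, or for some members of 3 reads or fewer. TwdlG held 16 of the 35 Tweedle reads, so the Tweedle values depend on the tolerance. The cause of the other moves was not tested. No paired analysis was possible because the table holds no value per sample and no library could be matched to a sample; for the same reason the authors' fit was not repeated without a replicate or with another normalization. In the Tweedle family 13 of 15 genes had 3 reads or fewer, and depth limits what can be said of them.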
